A study of Mus musculus with 18 samples.

Results

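The cytosolic ribosomal protein genes were taken as the genes whose symbol starts with Rpl or Rps followed directly by a digit, leaving out the S6 kinases (10 symbols that start with Rps6k) and 6 symbols that contain "-ps". This gave 83 of the 23951 genes in the table, 34 Rps and 49 Rpl, and each was described across all sorted populations. The symbol rule also took in genes other than the common ribosomal protein genes. Rps19bp1 encodes a binding partner of the ribosomal protein Rps19, Rpl7l1 a relative of Rpl7, and Rps4l is listed as a pseudogene by RefSeq. Rps27rt is an intronless copy of Rps27 with an identical coding sequence.

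Ribosomal proteins assemble with ribosomal RNA in the nucleolus into a small 40S subunit, which reads the mRNA (Rps proteins), and a large 60S subunit, which joins the amino acids (Rpl proteins). Their mRNAs are among the most abundant of growing cells and usually rise and fall together. Many also start with a run of pyrimidines, through which growth signals set their translation. In skin, hair follicle stem cells of the resting bulge are known for a low rate of protein synthesis, and basal keratinocytes renew the epidermis between the follicles.

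RNA was sequenced from cells sorted from ear skin of 8-week-old mice of both sexes at day 7 of 4 daily intraperitoneal injections of 2 mg tamoxifen. The DKO* mice carried floxed c-Jun and JunB alleles, the tamoxifen-inducible K5-Cre-ERT transgene and the mT/mG reporter, which turns from Tomato to GFP where Cre has acted, and are used as a psoriasis-like model. Control mice (Co) also carried K5-Cre-ERT and the reporter and were also given tamoxifen, but both genes were wild type or had 1 floxed allele only. CD45- CD49f-high cells were sorted as bulge stem cells (HF-SC, CD34+) or basal keratinocytes (b-KC, CD34-), and in DKO* mice also by GFP or Tomato (Tom), which gave 6 groups of 3 libraries. Both Co populations came from mice 810, 825 and 828, and the 4 DKO* populations all came from mice 814, 815 and 817, so that GFP and Tom cells shared their animals and both were compared with the same controls. The K5 promoter drives Cre in the basal layer of the epidermis and of the follicle alike, and the Tom cells of DKO* mice had not recombined the reporter but came from the same skin. Values are FPKM, that is fragments scaled to the length of the transcript and to the reads mapped in the library, or log2(FPKM + 1).

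Low FPKM values implied between 16530000 and 26300000 reads in a library, and 41 of 79 members had more than 1000 implied reads in every library. Jun fell from 835 to 1086 FPKM in HF-SC Co to 30.4 to 88.4 in HF-SC GFP, and from 876 to 1000 FPKM in b-KC Co to 29.6 to 65.4 in b-KC GFP, while HF-SC Tom had 308 to 614 and b-KC Tom 163 to 400. Junb had 436 to 463 FPKM in HF-SC Co, 38.6 to 77.5 in HF-SC GFP and 251 to 402 in HF-SC Tom, and 737 to 772, 37.2 to 72.2 and 208 to 397 in the b-KC groups in the same order. The Tom libraries were thus also below Co for both genes. Cd34, which defined the sort, had 640 to 889 FPKM in HF-SC Co but 160.6 to 228 in HF-SC GFP and 259.6 to 319 in HF-SC Tom, and 0.341 to 2.53 in the b-KC libraries. In bulk RNA, fewer cells of a type and less RNA per cell cannot be told apart.

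Nearly every member was abundant, but the levels spread over a wide range within the family. Rpl13, a 60S protein, had the highest mean level, 9.95 on the log2 scale, with 565 FPKM in the lowest library, a median of 1044 and 1814 in the highest. Rps18 and Rps2, both of the 40S subunit, followed with medians of 1036 and 803 FPKM. Rpl41, the smallest protein of the 60S subunit, had a median of 776 FPKM and Rps3a1 one of 822. The neighbours in this order overlapped across the 18 libraries. At the low end of the members that were expressed, Rps15a, a 40S protein, had 5.26 FPKM in the lowest library, a median of 14.9 and 34.5 in the highest. Rps19bp1 had a median of 19.1 FPKM and Rpl7l1 one of 44.3. Neither is a part of the subunits, whereas Rps15a is a subunit protein. Its mRNA and that of the 60S protein Rpl30 (median 43.4 FPKM) lay far below those of most subunit proteins, with which they are assembled one to one. FPKM is scaled to length, and Rps15a has the longest annotated transcript of the members, 3721 bases beside a median of 774.5. The part of this length in its low value was not tested. Much of the order of the levels was kept from library to library. Of the 80 members that passed the filter of at least 1 FPKM in at least 3 libraries, 32 were above the family median in every library and 30 were below it in every library. The 3 members that did not pass are paralogs known from other tissues. Rpl10l, a testis paralog of Rpl10, was listed at 0 in all 18 libraries, Rpl3l, a striated muscle paralog of Rpl3, reached at most 0.206 FPKM and was listed at 0 in 5 libraries, and Rpl39l reached at most 2.67 and was listed at 0 in 3.

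**Figure D1:**
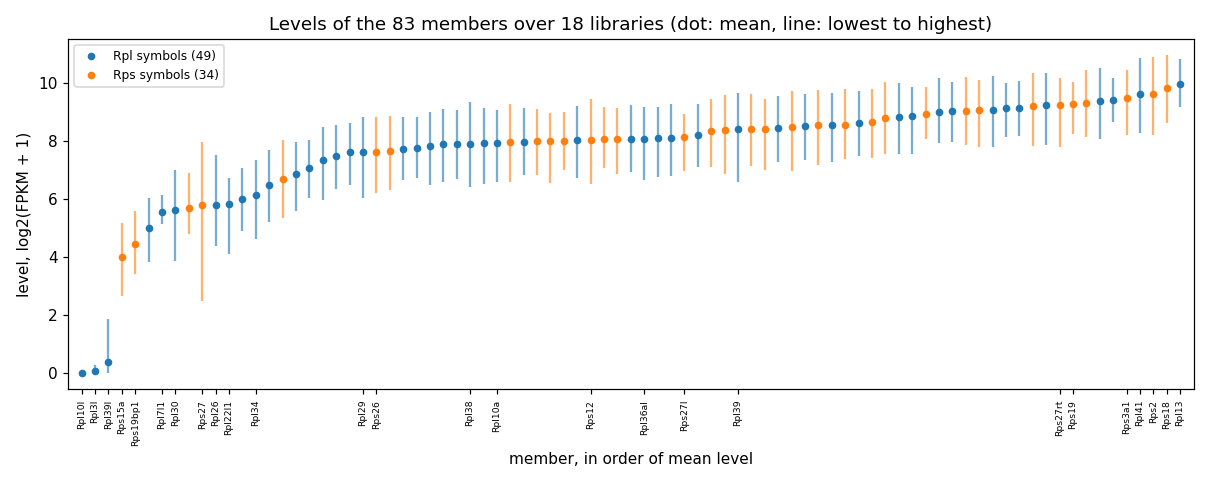
Level of each ribosomal protein gene in log2(FPKM + 1), in order of the mean level (points) with a line from the lowest to the highest of the 18 libraries, coloured by Rps or Rpl symbol, with some of the members labelled. The levels run from Rpl13 at a mean of 9.95 down to Rps15a at 3.99, and the 3 paralogs that failed the filter lie at or near 0.

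The starts of transcription are shown for members whose values stand out below, to let the shared pyrimidine start be compared. The capitals mark CTTTCC, a short pyrimidine motif searched on the strand of the gene, and each run holds 15 bases before and 15 after the start listed by RefSeq (GRCm38.p6), in which base 16 is the first of the transcript. Rpl38 is at chr11:114668565-114668594 (+), Rps27 at chr3:90213634-90213663 (-), Rps27rt at chr9:114982725-114982754 (-), Rpl26 at chr11:68901551-68901580 (+), Rps19 at chr7:24884577-24884606 (+) and Rpl13 at chr8:123102335-123102364 (+).
Rpl38: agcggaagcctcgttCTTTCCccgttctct
Rps27: atttccgctttcgctcCTTTCCggcggtga
Rps27rt: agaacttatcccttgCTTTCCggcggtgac
Rpl26: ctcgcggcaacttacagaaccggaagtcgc
Rps19: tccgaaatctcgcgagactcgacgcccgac
Rpl13: ttccctttcgcctgattttgattggcgttt
The motif begins with the first base of the transcript in Rpl38 and Rps27rt and with the next base in Rps27, and the other 3 runs do not hold these letters. From 50 bases before to 50 after the start, 21 of the 63 members with an entry held CTTTCC (33.3%), beside 5.43% of 27025 genes. The letters CCGGAA, the core that ETS factors are known to read, stood on either strand of the 300-base promoter window in 34 of 63 members (54.0%), beside 16.7% of all genes. These matches describe the letters alone.

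The members went up and down together from library to library. The median level of the 80 members in HF-SCs was 7.62, 6.90 and 7.42 on the log2 scale for Co (mice 810, 825 and 828), 8.08, 7.47 and 7.27 for GFP (mice 814, 815 and 817), and 8.44, 7.95 and 7.10 for Tom. The b-KC values were 8.25, 8.04 and 8.12 for Co, 9.26, 9.11 and 8.53 for GFP, and 8.74, 9.05 and 8.80 for Tom, and values are given in this order of mice throughout. All 6 DKO* b-KC libraries therefore lay above all 3 b-KC Co libraries, whereas the HF-SC groups overlapped. Within each mouse, the HF-SC population lay below the b-KC population of the same kind in 9 of 9 pairs, by 0.29 (the Tom cells of mouse 814) to 1.70 (the Tom cells of mouse 817). Mouse 825 gave the lowest value of both Co groups, and mouse 817 the lowest in 3 of the 4 DKO* groups. The library median alone took up 79.7% of the members' sum of squares within groups, and the pooled SD of that median was 0.40. Taking it off lowered the median SD of a member within groups from 0.40 to 0.088. By their share of the summed FPKM of all genes, too, every DKO* b-KC library lay above every b-KC Co library, and each HF-SC library lay below its b-KC pair except for the Tom cells of mouse 814. The HF-SC shares were 4.57%, 3.38% and 4.73% for Co, 5.32%, 4.15% and 3.82% for GFP, and 6.72%, 5.81% and 3.49% for Tom. The b-KC shares were 6.11%, 5.78% and 6.06% for Co, 8.02%, 7.78% and 7.19% for GFP, and 6.61%, 7.60% and 7.33% for Tom. The summed FPKM of all genes was not constant and ran from 360063 in HF-SC Co of mouse 825 to 706509 in b-KC GFP of mouse 814.

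**Figure D2:**
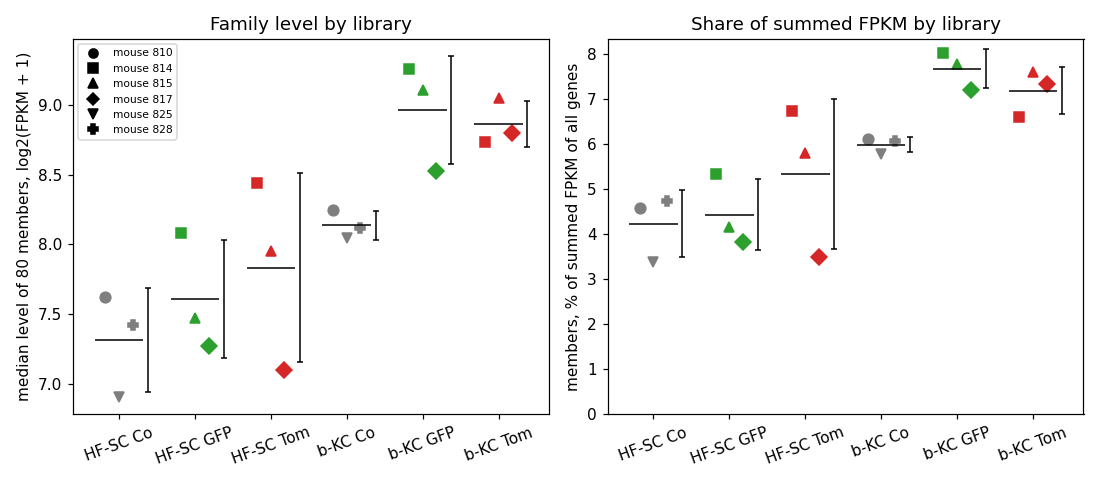
Median level of the 80 tested members in log2(FPKM + 1) (left) and their share of the summed FPKM of all genes in percent (right), 1 point per library with the marker showing the mouse, a line for the mean of each group and a bar for its SD. The b-KC GFP and Tom libraries (8.53 to 9.26) sit above the b-KC Co libraries (8.04 to 8.25), and the 3 HF-SC groups overlap between 6.90 and 8.44.

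The comparison of the Co populations asked how bulge stem cells differ from basal keratinocytes in the skin of tamoxifen-treated control mice. Most ribosomal protein genes were lower in HF-SC Co, with a median log2 fold change of -0.84 over 80 members (0.559-fold), beside -0.06 over all 12751 genes tested with limma. A gene was called where its adjusted p (limma, Benjamini-Hochberg) was under 0.05. Of the members, 53 fell and 0 rose, 32 of 46 Rpl and 21 of 34 Rps, beside 27.3% of all genes lower and 24.6% higher. In 74 of 80 members the 3 HF-SC libraries all lay below the 3 b-KC libraries, as in 37.4% of all genes. Rps26, a 40S protein at the exit of the mRNA, stood at 119, 71.8 and 108 FPKM for HF-SCs and at 255, 217 and 237 for b-KCs, without overlap, and a log2 fold change of -1.27 (SE 0.34, adjusted p = 0.00551, limma). Rpl29 fell by a log2 value of 1.18 (adjusted p = 0.00631, limma) and Rpl36al, a paralog of Rpl36a, by 1.16 (adjusted p = 0.00172). Rpl10a fell by 1.13 (adjusted p = 0.00656, limma). A few members stood apart from this shift. Rpl7l1 stood at 36.5, 44.2 and 42.8 FPKM for HF-SCs and at 34.5, 40.6 and 35.6 for b-KCs, overlapping, with a log2 fold change of 0.15 (adjusted p = 0.397). Rpl22l1, the paralog of Rpl22, had one of -0.12 (adjusted p = 0.836) and Rps27l, a paralog of Rps27 that p53 is known to induce, one of -0.30 (adjusted p = 0.417). The number of members called rested on single mice, since it was 26 without mouse 810, 3 without mouse 825 and 20 without mouse 828, and with the mouse as a block it was 70. The calls of Rps26, Rpl29 and Rpl10a were lost without mouse 825. With libraries scaled to a common sum the median of the members was -0.542 and that of all genes 0.222, 35 members were lower, and 1, Rpl7l1, was higher (0.47, adjusted p = 0.0251, limma). Markers of other cells and states moved with this comparison. The suprabasal markers, 6 of 6 lower, summed to 669 to 877 FPKM in HF-SC Co and to 6710 to 8316 in b-KC Co. The endothelial markers, 9 of 10 higher, summed to 57.6 to 94.5 and 1.74 to 3.08 FPKM, and the fibroblast markers, 5 of 5 tested higher, to 45.9 to 95.5 and 4.28 to 6.16. Of the leukocyte markers 2 of 4 tested were higher, and of the melanocyte markers 1 of 5. The bulge markers, 6 of 7 higher, summed to 13639 and 14046 FPKM in HF-SC Co of mice 810 and 825 but to 2489 in that of mouse 828. Their mean log2 levels there were 8.61, 8.53 and 6.59. The part of single abundant genes in this sum was not tested, nor was the part of all these markers in the difference.

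In the stem cells of DKO* mice, compared with those of Co mice, 3 ribosomal protein genes were called in GFP and 15 in Tom. In HF-SC GFP, the recombined cells, Rpl30 and Rpl36al rose and Rps27 fell, which is 2 members higher and 1 lower of 80, beside 18.5% of all genes higher and 20% lower. The median log2 fold change of the members was 0.29 (1.22-fold), beside -0.05 over all genes, but it was 0.066 without mouse 814, 0.088 without mouse 825 and 0.131 with libraries scaled to a common sum. In this comparison 6 members had all GFP libraries above all Co libraries and 1 had them all below, beside 24.7% and 28% of all genes. In HF-SC Tom, whose reporter had not recombined, 15 members rose and 0 fell, beside 22.3% of all genes higher and 22.1% lower. Their median was 0.49 (1.40-fold), beside -0.04, or 0.318 with libraries scaled to a common sum, and 4 members did not overlap with Co in the higher direction, beside 24.4% of all genes. Neither share of members called exceeded that of all genes. Rpl30, which binds RNA in the 60S subunit, was the clearest of them. Its HF-SC values were 22.8, 19.4 and 13.4 FPKM for Co, 56.4, 31.3 and 33.9 for GFP, and 53.9, 43.9 and 36.6 for Tom. No library of either DKO* group reached down to Co, and its log2 fold change was 1.07 in GFP (SE 0.23, adjusted p = 0.00196, limma) and 1.24 in Tom (adjusted p = 0.000502, limma). Rpl26, at the exit of the 60S tunnel, had values of 22.8, 19.9 and 26.4 FPKM for Co and of 76.2, 42.5 and 36.3 for Tom in these cells, which do not overlap. It rose by 1.07 on the log2 scale in Tom (SE 0.30, adjusted p = 0.00890, limma), while the libraries of the recombined cells had 47.8, 33.4 and 25.8. Rpl29 and Rpl36al also rose in HF-SC Tom, by 0.96 (adjusted p = 0.0245, limma) and 0.92 (adjusted p = 0.0103). The calls of Rpl30 and Rpl26 in these comparisons held without each mouse in turn. Those of Rpl29 in Tom, and of Rpl36al and Rps27 in GFP, were each lost without any one of 4 mice, and that of Rpl36al in Tom without mouse 815 or 825. The endothelial markers moved with the Tom group, as all 10 were called higher against HF-SC Co. Endothelial cells can fall in a CD34+ gate, and the paper lists a CD31 antibody among its stains without tying it to this sort. The endothelial markers summed to 57.6 to 94.5 FPKM for Co, 1.88 to 34.6 for GFP, and 467 to 1522 for Tom. In GFP 8 of the 10 were lower, and 3 of 5 melanocyte markers were higher, with sums of 3.68 to 5.98 FPKM for Co and 7.32 to 17.7 for GFP. The 9 leukocyte markers summed to 8.85 to 12.5 FPKM for Co, 118 to 151 for GFP, and 95.3 to 197 for Tom, but only 4 passed the filter, of which Cd74, the invariant chain of MHC class II, rose by 4.49 and 4.41 on the log2 scale, and Itgam rose in GFP. The 6 suprabasal markers summed to 669 to 877, 1679 to 3383 and 1610 to 2064 FPKM, with 3 higher in each DKO* group and 1 lower in Tom. The bulge markers were lower in 4 of 7 for GFP and 6 of 7 for Tom. The part of these cells in the changes was not tested. The counts moved with single mice. Without mouse 817, whose HF-SC Tom library had the lowest share of ribosomal protein FPKM of its group, 20 members were called in GFP and 71 in Tom, and the median in Tom was 0.90. It was 0.165 without mouse 814 and 0.27 without mouse 825. Without mouse 814, 815, 825 or 828 there were 1, 2, 1 and 1 in GFP and 3, 3, 2 and 5 in Tom, and without mouse 810 there were 5 and 13. With the compared groups alone in the fit, 4 members were called in Tom, and with libraries scaled to a common sum 4 members were higher and 1 lower in GFP.

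In the basal keratinocytes of DKO* mice more members were called, with a share above that of all genes in GFP and near it in Tom. In b-KC GFP, 35 members rose and 0 fell, 20 of 46 Rpl and 15 of 34 Rps, beside 20.3% of all genes higher and 21.3% lower, with a median log2 fold change of 0.79 (1.73-fold) beside -0.03 over all genes. All 3 b-KC GFP libraries lay above all 3 b-KC Co libraries in 75 of 80 members, as in 28% of all genes. In b-KC Tom, 22 members rose and 0 fell, beside 22.6% of all genes higher and 23.3% lower, with a median of 0.65 (1.57-fold) beside -0.02, and 76 of 80 members lay above Co in every library, as in 31.6% of all genes. All 22 were also among the 35 called in GFP, which shares its control mice. Rpl30 had b-KC values of 42.8, 30.1 and 36.1 FPKM for Co, 121, 126 and 88.3 for GFP, and 92.7, 98.9 and 105 for Tom. Both DKO* groups lay above Co and overlapped with each other, and it rose by 1.59 on the log2 scale in GFP (adjusted p = 0.000132, limma) and by 1.43 in Tom (adjusted p = 0.000185, limma). Rpl26 stood at 39.8, 45.4 and 47.0 FPKM for Co, 148, 133 and 80.6 for GFP, and 107, 179 and 103 for Tom. It rose by 1.39 in GFP (adjusted p = 0.00209, limma) and by 1.49 in Tom (adjusted p = 0.000934, limma), again with GFP and Tom above Co and overlapping with each other. Rpl38, a small 60S protein that the translation of Hox mRNAs is known to need, stood at 227, 176 and 188 FPKM for Co, 639, 569 and 315 for GFP, and 435, 515 and 396 for Tom. Its log2 fold change was 1.31 in GFP (SE 0.34, adjusted p = 0.00721, limma) and 1.18 in Tom (adjusted p = 0.0106, limma). Rpl39, a small protein that lines the exit tunnel, rose by 1.22 in GFP (SE 0.45, adjusted p = 0.0417, limma) and by 1.28 in Tom (adjusted p = 0.0311). Rpl34 rose by 1.14 in GFP (adjusted p = 0.00727, limma), and Rpl5, which carries the 5S RNA and can bind Mdm2, by 1.02 in Tom (adjusted p = 0.00523). Without each mouse in turn the calls of Rpl30, Rpl26 and Rpl5 held, those of Rpl38 and Rpl34 were lost without mouse 815, and those of Rpl39 without any one of mice 810, 815, 825 and 828. The count in GFP was 15, 14, 5, 77, 9 and 8 without mice 810, 814, 815, 817, 825 and 828 in that order, and the count in Tom was 13, 27, 5, 58, 8 and 8. With the compared groups alone in the fit, 63 members were called in GFP and 69 in Tom, and with libraries scaled to a common sum 17 rose in GFP, while 15 rose and 2, Rps19 and Rps27, fell in Tom. The median rise of the members was then 0.42 in GFP and 0.33 in Tom, while that of all genes moved to -0.34 and -0.29. The 9 leukocyte markers summed to 5.18 to 8.08 FPKM in b-KC Co (Cd3g at 0), 234 to 405 in GFP and 171 to 811 in Tom. Of these, 4 passed the filter and 2 rose, Cd74 by 5.61 and 5.95 on the log2 scale and Cd68 by 0.91 and 1.30. The basal markers summed to 16068 to 17362 FPKM in b-KC Co, 6305 to 10369 in GFP and 5780 to 16073 in Tom, with 2 of 6 lower in each. The lowest log2 fold change of a basal marker was -4.80 in GFP and -8.81 in Tom, beside medians of -0.83 and -0.51. Krt5 had 4928 to 5530 FPKM in Co, 2753 to 5473 in GFP and 4093 to 7318 in Tom. The part of single genes in these sums was not tested. The suprabasal markers summed to 6710 to 8316, 4793 to 6748 and 3824 to 6913 FPKM, with 3 of 6 lower in each. The bulge markers summed to 3186 to 3344, 664 to 1475 and 399 to 1238 FPKM, with 1 of 7 lower in GFP and 4 of 7 in Tom. The part of these in the rise was not tested. At an adjusted p under 0.01 and a log2 fold change of at least 2, 0 members were called in any comparison.

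**Figure D3:**
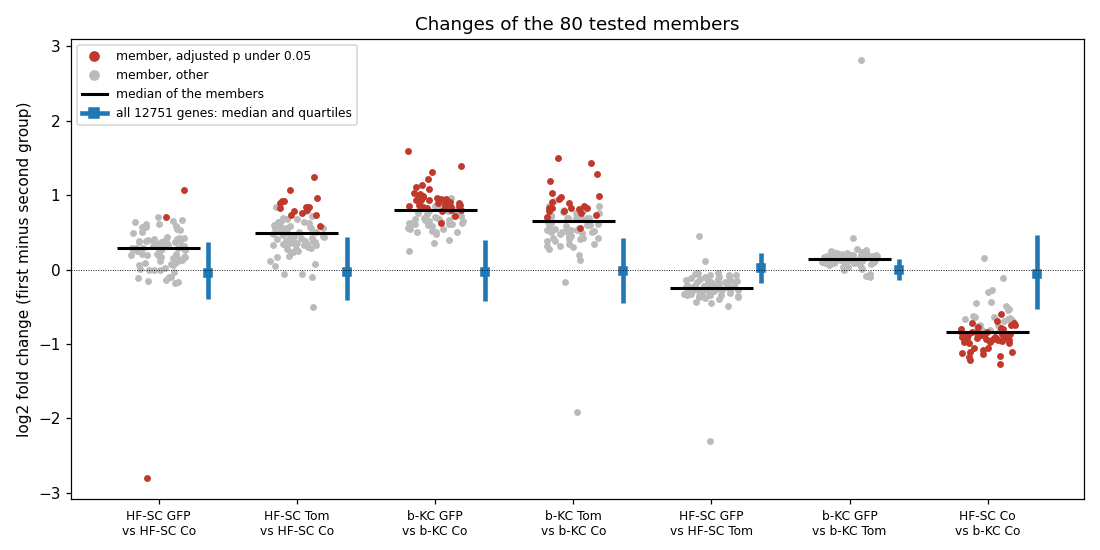
Log2 fold change of each of the 80 tested members in 7 comparisons (points, red where the adjusted p is under 0.05 in limma), with the median of the members as a black line and the median and quartiles of all 12751 genes in blue. The members sit around 0.79 and 0.65 in the DKO* b-KC populations and around -0.84 in HF-SC Co against b-KC Co, with Rps27 far below in HF-SC GFP at -2.80.

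With all mice and no block, no ribosomal protein gene was called between GFP and Tom cells of the same mice. With the mouse as a fixed block, Rps27 was called in b-KCs with a log2 fold change of 2.82. In HF-SCs, 0 members were called between GFP and Tom by limma, 1 had an unadjusted p under 0.05 and the median was -0.24 (0.845-fold), beside 2.83% of all genes higher and 5.8% lower. In b-KCs, 0 members were called, 1 had an unadjusted p under 0.05 and the median was 0.14 (1.10-fold), beside 1.19% of all genes higher and 0.518% lower. In b-KCs 2 members had all GFP libraries above all Tom libraries, beside 8.48% of all genes. Within mice 814, 815 and 817, the family median of GFP differed from that of Tom by -0.36, -0.49 and 0.17 in HF-SCs and by 0.52, 0.06 and -0.27 in b-KCs, so the sign was not the same in all mice. The median in b-KCs was -0.048 without mouse 814, 0.305 without mouse 817 and 0.087 with libraries scaled to a common sum. In HF-SCs it was -0.081 without mouse 815 and -0.465 without mouse 817, with 1 member called lower in each case. Of the markers in HF-SCs, all 10 endothelial ones were lower for GFP than for Tom (median -5.00), while 1 melanocyte, 1 suprabasal and 1 leukocyte marker were higher. Their part in the difference was not tested. Whether the DKO* change differed between HF-SCs and b-KCs was tested by interaction terms. For GFP, 0 members were called by limma and 2 had an unadjusted p under 0.05, beside 7.31% of all genes higher and 5.22% lower, although the estimate was negative in 80 of 80 members with a median of -0.52, or in 76 of 80 with a median of -0.301 with libraries scaled to a common sum. The GFP term of Rps27 had an adjusted p of 0.0547 (limma), which was 0.0272 with the mouse as a block, 0.0366 with only the groups compared and 0.00992 without mouse 815, and 2 members were called without mouse 817. For Tom, 0 members were called and 0 had an unadjusted p under 0.05, beside 10.3% of all genes higher and 5.58% lower, with a median of -0.14, which was -0.469 without mouse 814, -0.294 without mouse 825, 0.226 without mouse 817 and 0.014 with libraries scaled to a common sum. The larger rise of the family in b-KCs is thus not shown to differ from that in HF-SCs.

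Since the members moved together, each member was also set against it by subtracting the family median of its own library, an analysis added after the data were seen. By construction some members then lie above 0 and others below. Of 80 members, 4 lay above and 6 below the family in HF-SC GFP, beside 5.47% and 9.85% of all genes, and 6 above and 4 below in HF-SC Tom, beside 6.74% and 19.9%. In b-KC GFP 3 lay above and 6 below, beside 2.28% and 47.5% of all genes, and in b-KC Tom 3 above and 13 below, beside 3.07% and 35.8%. Rps19, a 40S protein whose human gene is the one most often mutated in Diamond-Blackfan anaemia, did not follow the family. Its HF-SC values were 527, 403 and 534 FPKM for Co, 544, 384 and 381 for GFP, and 633, 532 and 296 for Tom. Its b-KC values were 757, 835 and 796 FPKM for Co, 1044, 988 and 828 for GFP, and 595, 822 and 720 for Tom, and those of Tom overlapped with Co. Relative to the family median of the library, Rps19 lay between 1.32 and 1.76 above it in the 6 Co libraries and between 0.48 and 1.30 above it in the 12 DKO* libraries, without overlap. These libraries came from only 3 Co and 3 DKO* mice. How many other genes separate in this way was not counted. Against the family it fell by 0.46 for GFP (adjusted p = 0.0425, limma) and 0.58 for Tom (adjusted p = 0.00972) in HF-SCs, and by 0.57 for GFP (adjusted p = 0.00936) and 0.90 for Tom (adjusted p = 0.00042) in b-KCs. The value in b-KC Tom held without each mouse in turn, at an adjusted p of at most 0.0163 (limma), and the other 3 were each lost without some mice.

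Rpl38 showed the opposite pattern. It lay between 0.42 and 0.58 below the family median in the 6 Co libraries and between -0.24 and 0.06 in the 12 DKO* libraries. These again did not overlap and came from the same 6 mice. Against the family it rose by 0.48 in b-KC GFP (adjusted p = 0.0139, limma) and 0.46 in b-KC Tom (adjusted p = 0.0171), and its values in HF-SC GFP and Tom were 0.37 (adjusted p = 0.0755) and 0.32 (adjusted p = 0.0797). Rpl30 rose against the family by 0.77 and 0.72 in the GFP and Tom cells of HF-SCs and by 0.76 and 0.71 in those of b-KCs, with adjusted p of 0.0485, 0.0448, 0.0252 and 0.0388 (limma). Rpl26 rose against it by 0.56 in b-KC GFP (adjusted p = 0.0437, limma) and 0.77 in b-KC Tom (adjusted p = 0.0148). Rpl13, the most abundant member, fell against it by 0.44 for GFP and 0.45 for Tom in HF-SCs and by 0.41 for Tom in b-KCs (adjusted p = 0.0401, 0.0270 and 0.0301, limma). Rps27l fell against it in HF-SC GFP by 0.44 (adjusted p = 0.0421, limma) and in HF-SC Tom by 0.62 (adjusted p = 0.00477). All calls named here for Rpl38, Rpl30, Rpl26, Rpl13 and Rps27l were lost without at least 1 mouse. With the mouse as a block the calls of Rpl30 in HF-SC GFP and Tom (adjusted p = 0.0567 and 0.0506, limma), Rpl26 in b-KC GFP (0.0553) and Rps27l in HF-SC GFP (0.0640) were lost too. In HF-SC Co against b-KC Co, 4 members lay above the family and 6 below, beside 43.9% and 3.84% of all genes. Rpl7l1 lay above it by 0.98 (adjusted p = 0.0231, limma), Rpl22l1 by 0.71 (adjusted p = 0.0406), Rps27l by 0.53 (adjusted p = 0.00602) and Rpl13 by 0.37 (adjusted p = 0.0371). Without one mouse, the number of members called against the family ranged from 0 to 12 (GFP) and 0 to 11 (Tom) in HF-SCs, from 0 to 11 (GFP) and 1 to 17 (Tom) in b-KCs and from 0 to 2 in the comparison of the Co populations.

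**Figure D4:**
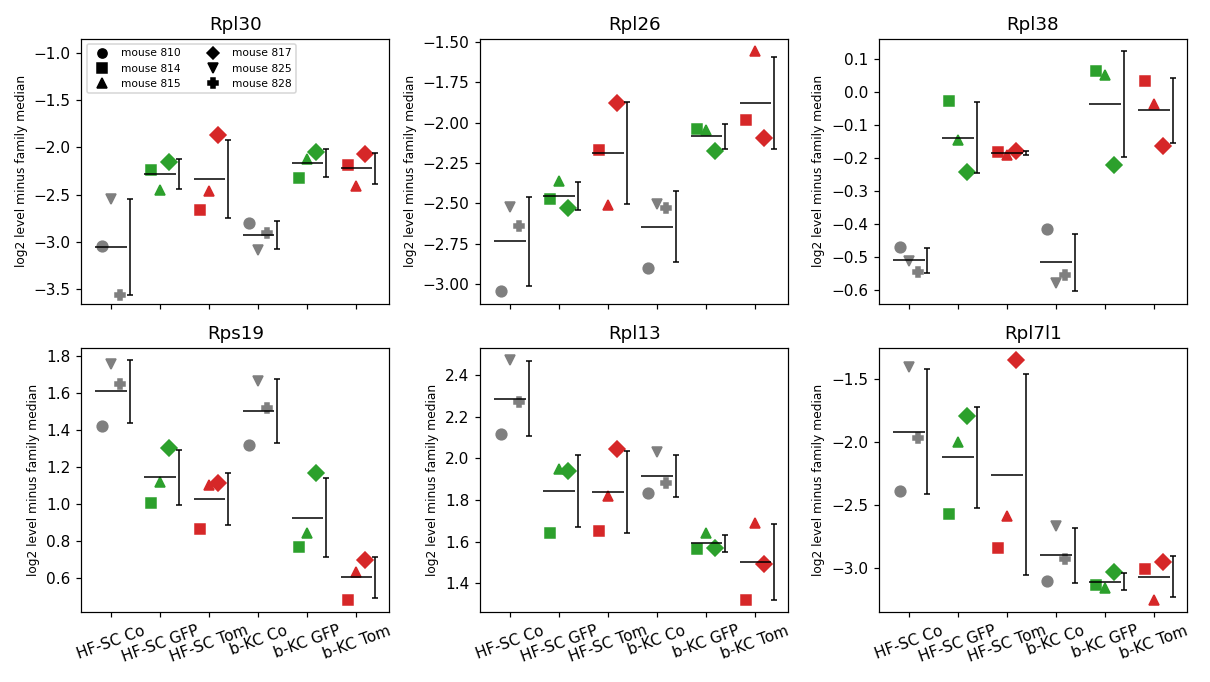
Level of 6 members in each library as the log2 level minus the median of the family in that library, 1 point per library with the marker showing the mouse, a line for the mean of each group and a bar for its SD. Rps19 lies at 1.32 to 1.76 in the Co libraries and at 0.48 to 1.30 in the DKO* libraries, and Rpl38 at -0.58 to -0.42 in the Co libraries and at -0.24 to 0.06 in the DKO* libraries.

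Rps27 was the least stable member, and its values cannot be read apart from those of Rps27rt. Rps27 lies on chromosome 3 from 90016593 to 90017573 (NCBIM37, minus strand, 4 exons), and Rps27rt is a single exon on chromosome 9 from 114891515 to 114891858 (minus strand). Their coding sequences were identical over all 255 bases, and 291 of the 294 windows of 51 bases in Rps27rt, the length of a read, stood in Rps27 as well. Rps27l, on chromosome 9 (plus strand), shared 76.1% of the coding bases and 0 such windows. The first 30 coding bases (NCBIM37) are shown because reads from the first 2 genes cannot be assigned by them, with capitals at the 10 positions where Rps27l differs.
Rps27: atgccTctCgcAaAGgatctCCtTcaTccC
Rps27rt: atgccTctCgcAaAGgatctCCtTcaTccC
Rps27l: atgccCctGgcTaGAgatctGTtAcaCccT
For Rps27, the HF-SC values were 55.3, 116 and 81.9 FPKM for Co, 4.91, 47.7 and 4.61 for GFP, and 60.9, 84.1 and 35.4 for Tom. The b-KC values were 43.0, 244 and 89.2 FPKM for Co, 207, 173 and 174 for GFP, and 59.5, 5.81 and 42.8 for Tom, so that single libraries stood far from their group in either direction. Its SD within groups, 1.18 on the log2 scale, was the largest of the family, ahead of Rpl39 (0.62), Rps27rt (0.58), Rpl22l1 (0.58) and Rps12 (0.51). The log2 fold change of Rps27 in HF-SC GFP was -2.80 (SE 0.85, adjusted p = 0.0159, limma), and that in b-KC Tom was -1.92 (adjusted p = 0.0751, limma). The copy, Rps27rt, stood at 593, 235 and 491 FPKM for Co and 656, 423 and 380 for GFP in HF-SCs, which overlap. The sum of both genes was 648, 351 and 573 FPKM for Co and 661, 470.4 and 385 for GFP in the same cells, with means of 524 ± 155 and 505 ± 141 (SD, n = 3). The part of that sum listed under Rps27 ran from 0.51% to 33.1% over the 18 libraries. The fall of Rps27 is therefore reported as uncertain.

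**Figure D5:**
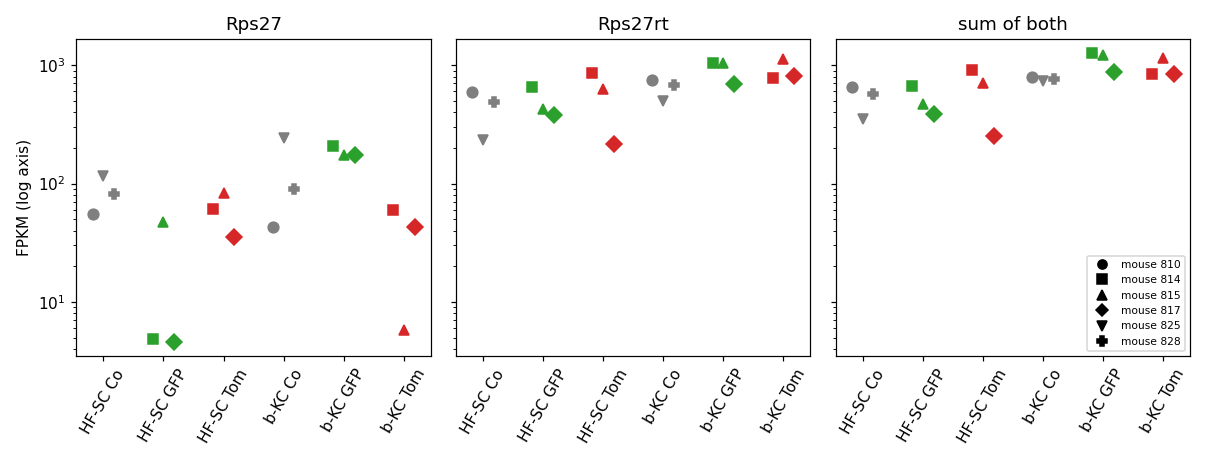
FPKM (log axis) of Rps27, of its intronless copy Rps27rt and of their sum, 1 point per library with the marker showing the mouse. Rps27 spans 4.61 to 244 FPKM with low libraries in HF-SC GFP and b-KC Tom, whereas the sum stays between 252 and 1259 FPKM.

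The other named paralog pairs shared no exact window of the length of a read. Windows that match with mismatches were not counted, although the reads were placed with 2 mismatches allowed. Whether reads of these pairs can be told apart is therefore not shown. Rpl3 and Rpl3l, Rpl7 and Rpl7l1, Rpl10 and Rpl10l, Rpl22 and Rpl22l1, Rpl36a and Rpl36al, Rpl39 and Rpl39l, and Rps4x and Rps4l shared 0 windows of 51 bases, with identities of the coding sequence from 43.3% (Rpl3 and Rpl3l) to 87.9% (Rpl36a and Rpl36al). Copies elsewhere in the genome are the wider limit of this family, whose mRNAs have left many processed pseudogenes. Over the 82 members with an annotated transcript, a median of 60.6% of the 51-base windows had an exact copy elsewhere, 14 members had copies of over 90%, and Rps19bp1, Rpl3l and Rpl39l were among those with none. Members with few and with many copies were both among those called. In b-KC GFP, 17 of 34 members with up to 50% of windows copied were called with a median of 0.71, and 17 of 45 members above that with a median of 0.80. In HF-SC Co against b-KC Co the figures were 24 of 34 (-0.81) and 29 of 45 (-0.87). Across 79 members, which share their libraries and are not independent, the SD within groups went down with coding length (Pearson's r = -0.43, Spearman's rho = -0.54). Short and abundant genes outside the family moved in the same direction. The 173 other genes with a coding length up to 500 bases and a mean level of at least 100 FPKM had median log2 fold changes of 0.33 for GFP and 0.44 for Tom in HF-SCs, 0.71 for GFP and 0.70 for Tom in b-KCs, and -0.50 between the Co populations. In the same order the medians were 0.09, 0.25, 0.41, 0.36 and -0.20 for all 991 other genes of that length, and 0.26, 0.30, 0.41, 0.45 and -0.45 for the 668 other genes of that level and any length. The 3340 other genes with a coding length over 2000 bases had -0.08, -0.15, -0.29, -0.24 and 0.04. The part of transcript length and of level in the change of the family was not tested.

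The rest of the translation machinery was counted from lists of known genes, beside 18.5%, 22.3%, 20.3% and 22.6% of all genes higher and 20%, 22.1%, 21.3% and 23.3% lower against Co in GFP and Tom of HF-SCs and then of b-KCs. Of 36 factors of ribosome biogenesis, 29 rose for GFP (median log2 fold change 0.74) and 28 for Tom (0.72) in HF-SCs, 24 rose for GFP (0.65) and 27 for Tom (0.74) in b-KCs, and 0 fell in each. The ribosomal proteins had 2 of 80 higher in HF-SC GFP. Nhp2, a protein of the particles that modify ribosomal RNA, rose by 1.63 for GFP and 1.82 for Tom in HF-SCs and by 1.33 for GFP and 1.23 for Tom in b-KCs (largest adjusted p = 0.000403, limma). Between the Co populations it differed by -1.70 (HF-SC minus b-KC, adjusted p = 1.15e-05, limma). Npm1, a nucleolar chaperone, rose by 1.38 in HF-SC GFP and by 1.85 in b-KC Tom (adjusted p = 0.00056 and 4.98e-05, limma), and Ncl, nucleolin, by 1.29 in HF-SC GFP (adjusted p = 0.00299). Eif6, which keeps the subunits from joining early, rose by 1.45 in HF-SC Tom (adjusted p = 1.17e-05, limma). Of 35 translation factors, 15 and 18 rose in the GFP and Tom cells of HF-SCs and 19 and 21 in those of b-KCs, while 1, 1, 0 and 1 fell. Eif4ebp1, a repressor of cap-dependent initiation, rose in all 4, by 1.59, 1.55, 1.77 and 1.83 (largest adjusted p = 0.00192, limma).

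Ribosomal proteins of the mitochondrion, which build a separate ribosome, were counted beside the cytosolic ones. Of 77, 15 rose for GFP (median 0.32) and 35 for Tom (0.52) in HF-SCs, 64 rose for GFP (0.80) and 64 for Tom (0.82) in b-KCs, and 0 fell in each. The 15 in HF-SC GFP are close to the share of all genes, 18.5%. In HF-SC Co against b-KC Co, 30 fell and 0 rose (median -0.45), beside 27.3% of all genes lower. Mrpl12 rose by 1.13 in HF-SC GFP (adjusted p = 0.00109, limma), by 1.53 in HF-SC Tom and by 1.55 in b-KC Tom. Of the ribosomal proteins that the symbol rule leaves out, 7 of 7 were lower in HF-SC Co than in b-KC Co (median -1.10), among them Rplp0 of the 60S stalk (-1.56, adjusted p = 2.58e-05, limma), and 1, 1, 3 and 1 of 7 were higher in the 4 DKO* populations. Gnb2l1, which encodes the 40S scaffold Rack1, rose in all 4, by 1.05, 1.35, 1.21 and 1.14 (largest adjusted p = 0.00376, limma). Of 15 tested genes of the S6 kinases and of growth control, 3, 2, 2 and 2 rose and 3, 3, 1 and 2 fell in the 4 populations in the same order. Myc, which drives ribosome production in many cells, fell by 1.65 for GFP (adjusted p = 0.0012, limma) and by 1.59 for Tom (adjusted p = 0.00114) in b-KCs, and differed by -1.46 between the Co populations (HF-SC minus b-KC, adjusted p = 0.0015). Between GFP and Tom, 0 genes of these lists were called in either cell type.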

How the data were processed

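The data are RNA-seq of 18 libraries from sorted mouse ear skin cells, placed in 6 groups of 3 mice by the sample labels. Libraries were made from 4 to 10 ng of RNA by oligo(dT) priming with SMART-Seq v4 and Nextera XT (12 PCR cycles) without strand information. Single-end reads of 51 bases were placed on NCBI37/mm9 by the authors, who ran TopHat 2.0.10 with Bowtie 1.0.0, allowed 2 mismatches and 20 multihits and, per the submitters' processing notes, used Cufflinks 2.2.1 and FastQC 0.11.0. The processing notes list mm9 beside GRCm38/mm10, and the study's methods, which name mm9, were followed. The authors deposited 1 FPKM value per gene and library, scaled for transcript length and library size. Further scaling between libraries is not given in the sources used here. Reads that fit several copies of a gene can be divided between them at this step.

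The 12751 genes that reached 1 FPKM in 3 or more libraries were fitted in limma 3.58.1 (R 4.3.3) on log2(FPKM + 1), on which changes of low genes come out too small, with 1 mean per group, eBayes with a trend and Benjamini-Hochberg adjustment within each comparison. A call is an adjusted p under 0.05. No test over the members as a set was run. The implied depth came from the steps of low FPKM values in 7744 genes, of which 76.4% to 80.2% lay within 0.1 of a whole read, and covers counting error only, since amplified reads that carry no molecular identifier do not each stand for a molecule.

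The members and gene lists were chosen with earlier results of these data known. Named were the 5 members with the highest and the 5 with the lowest level, the 5 called members with the largest change in each direction of each comparison, members over 3 scaled median absolute deviations from the members' median change, the 5 with the largest SD within groups, the paralog pairs and up to 3 called genes of each other list. Of these, the members most relevant to each comparison are printed, some members are not reported here, and members called against the family were chosen after their values were seen.

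The labels give the mouse of each library, so same-numbered libraries come from the same animal. Their deviations from the group means correlated at 0.59, 0.08 and 0.43 between HF-SC GFP and Tom, 0.24, 0.67 and 0.69 between b-KC GFP and Tom, and 0.32, 0.31 and 0.20 between the Co populations. The mouse was therefore also used as a block, beside the unblocked fit. Other alternatives were another pseudocount, no filter, no trend, only the groups compared, other thresholds, scaling by the median of ratios, zeros of abundant genes as missing and each mouse left out. Scaling to a common sum and centring on the members were added after seeing the data. Copies of 51-base windows and coding sequences were taken from the NCBIM37 genome and annotation, and starts of transcription from RefSeq on GRCm38.p6. The rest was done in Python 3.11.15 (pandas 2.3.3, numpy 2.4.6, matplotlib 3.10.9).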

Additional observations from a re-analysis of the deposited data

Results flagged for a closer look

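In the fit reported, 0 ribosomal protein genes of the cytosol were called for a difference in their change between HF-SCs and b-KCs, and under the alternatives at most 2 were called, in the GFP term without mouse 817. Among the other genes of the translation lists, 3 were called by an interaction term in limma (Benjamini-Hochberg adjustment over all genes). Mrps25, a mitochondrial ribosomal protein, changed less in HF-SC Tom than in b-KC Tom, with a log2 difference of -0.55 (adjusted p = 0.0442, limma). Ebna1bp2, a factor of 60S assembly, changed less in HF-SC GFP than in b-KC GFP, by -0.68 (adjusted p = 0.0301, limma). Eif5, which triggers GTP hydrolysis at the start codon, had a difference of -0.66 for Tom (adjusted p = 0.0443, limma). Each of these calls was lost without any one of 5 of the 6 mice and with libraries scaled to a common sum. Those of Mrps25 and Eif5 were also lost with scaling by the median of ratios, and that of Eif5 with only the groups compared.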

How the results depend on the processing

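The direction of the family's median change was the same under every scaling, filter and pseudocount tried in the 7 pairwise comparisons, and no called value reversed. The median did change sign without mouse 814 in b-KC GFP against Tom (-0.048), and in the Tom interaction without mouse 817 (0.226) and when scaled to a common sum (0.014). The number of members called was far less stable than the direction. With each mouse left out in turn it ranged against Co from 1 to 20 (GFP) and 2 to 71 (Tom) in HF-SCs, from 5 to 77 (GFP) and 5 to 58 (Tom) in b-KCs, and from 3 to 26 in HF-SC Co against b-KC Co, 0 to 1 in HF-SC GFP against Tom and 0 to 2 in the GFP interaction. The median then ranged from 0.066 to 0.436 in HF-SC GFP and from 0.165 to 0.902 in HF-SC Tom. At the stricter thresholds, an adjusted p under 0.01 and a log2 fold change of at least 2, it was 0 throughout. Without a filter it was 20 for GFP and 12 for Tom in b-KCs. With only the groups compared it was 4 for Tom in HF-SCs, 63 for GFP and 69 for Tom in b-KCs and 1 in the GFP interaction. Scaled to a common sum it was 5 in HF-SC GFP and 17 in b-KC GFP, and this scaling moved the median of all genes to between -0.34 and -0.20 in the 4 DKO* comparisons with Co. Without keratins in the sum, the share of the members in b-KC Co was 6.40%. The causes were not tested.

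With the mouse as a block (pairing by the same animal), 4 (GFP) and 17 (Tom) members were called in HF-SCs, 44 (GFP) and 29 (Tom) in b-KCs, 70 in HF-SC Co against b-KC Co and 1, Rps27, in the GFP interaction. As a fixed block within pairs it was 1, again Rps27, in b-KC GFP against Tom, and the block changed none of the other counts by over 1.5 times. Depth limits few members, since 76 of 79 had over 100 implied reads in every library. The limits are copies of these genes elsewhere in the genome, a spread between mice that the members share, and 3 mice a group.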
